A study of Macaca mulatta with 24 samples.

Results

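The insulin-like growth factor (IGF) system of omental fat was followed through 10 genes chosen by symbol. They are the ligands IGF1 and IGF2, the receptors IGF1R and IGF2R, and the binding proteins IGFBP2, IGFBP3, IGFBP4, IGFBP5, IGFBP6 and IGFBP7. Each symbol was matched, mainly through a table of gene names, to the Ensembl gene IDs of the deposited count table, which holds 32386 genes. Of the 10 symbols, 8 could be matched, each to 1 ID, and all 8 passed the low-count filter and were among the 15207 genes tested. IGFBP2 and IGFBP6 could not be matched, which does not show that the table lacks them, and were not analysed here. The same holds for unmatched genes of the lists below.

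The study asked how raised testosterone and a high-fat diet, alone and together, act on visceral white adipose tissue. RNA depleted of ribosomal RNA was sequenced from omental biopsies of 24 female rhesus macaques, 6 in each of 4 groups. Control animals (C) carried cholesterol implants and ate monkey chow. T animals carried testosterone implants and ate the same chow. WSD animals carried control implants and ate a Western-style diet rich in fat, and T+WSD animals received testosterone and that diet together. Treatment lasted 3 years, and the labels give every animal an age of 4 years, while the study's methods give a higher age at biopsy. The study picked the 6 animals of each group as representative of that group's metabolic findings.

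Total counts ran from 6899185 to 28270776 per library, with group medians of 20293398 (C), 21995508 (T), 22389113 (WSD) and 20501758 (T+WSD). In 8 libraries, 2 in each group, from 9.92% to 54.7% of all counts belonged to ENSMMUG00000038258, which has no symbol, against 0.879% to 2.51% in the other 16 libraries. IGF genes that passed the test are therefore also given within the 16 libraries and within the 8. The tissue label was checked against adipocyte markers, of which 7 of the 8 listed could be matched. All 7 were detected in every animal, and LPL, lipoprotein lipase, was the most abundant, with a mean of 6677 CPM, which are counts scaled to a common library size. Their sum was lowest in C replicate 1, at 1997 CPM, while the other C animals stood at 8997 to 14806 CPM. Of the other marker lists given below, that animal had the highest mesothelial sum (38893 CPM) and the lowest macrophage sum (204 CPM).

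IGF1 and IGF2 are small secreted hormones related to insulin that promote growth, survival and differentiation, and IGF1 supports the formation of fat cells from their precursors. Both signal through IGF1R, a receptor tyrosine kinase, while IGF2R takes up IGF2 and delivers it to lysosomes for breakdown. Outside cells most IGF is held by binding proteins, which lengthen its life and limit or guide its access to the receptors.

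Levels are CPM over the tested genes after TMM scaling, which aligns libraries of different composition. They are given as the lowest, median and highest of the 6 animals of a group. No transcript lengths were used, so a gene given as the most abundant of a list is the one with the highest mean CPM, uncorrected for length. A gene was called when its edgeR adjusted p was below 0.05 and its fold change was over 1.5.

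Of the 8 genes, 2 were called in T+WSD against C, IGF2 and IGF2R, and both were higher in T+WSD. Over all 15207 genes tested, 10% were called in this comparison, 4.72% as higher and 5.29% as lower. A count of 2 among 8 genes is too small to set the IGF genes apart from that background, and the results below are those of single genes. The 8 genes had a median log2 fold change of -0.01, beside -0.04 over all genes tested.

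**Figure D1:**
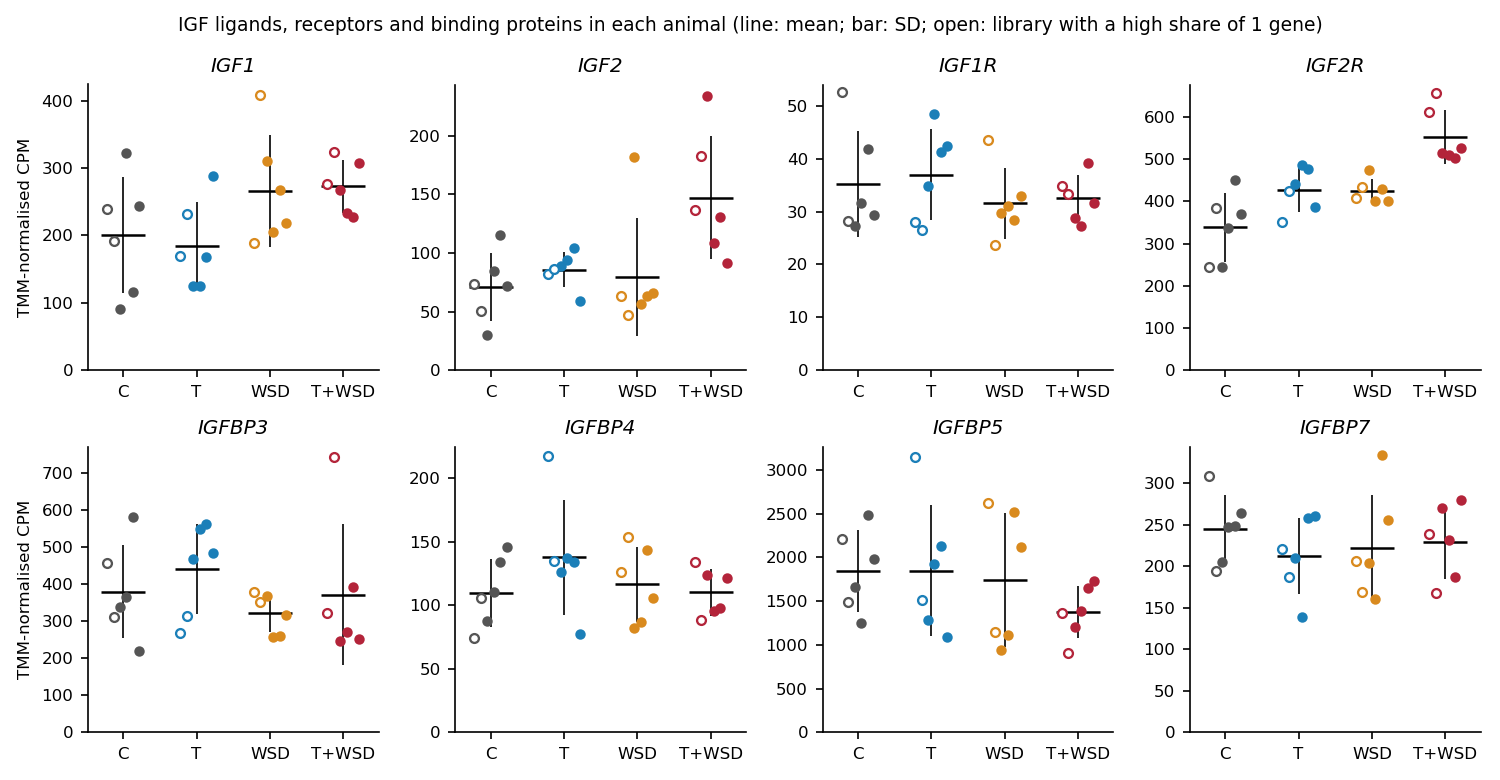
TMM-normalised CPM (y axis, linear, from 0) of the 8 IGF genes in each of the 24 animals, by group (x axis). Points are animals, open points are the 8 libraries in which a single gene took 9.92% to 54.7% of counts, lines are group means and bars are SD (n = 6). All 6 T+WSD animals lie above every other animal for IGF2R, and the groups overlap for the other 7 genes.

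Among the ligands, IGF2 (ENSMMUG00000047449), a growth factor best known from fetal life, stood at 29.8, 72.8 and 116 CPM in C. The corresponding values were 59.4, 87.6 and 104 CPM in T and 47.4, 63.0 and 182 CPM in WSD. In T+WSD they were 91.5, 134 and 234 CPM. The T+WSD animals were the highest as a group, yet they overlapped with each other group. Of the 6, 4 lay above every C animal, 5 above every T animal and 2 above every WSD animal. The WSD maximum belonged to replicate 21, and the next WSD animal stood at 65.8 CPM.

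Mean IGF2 was 147 ± 52.3 CPM (SD, n = 6) in T+WSD and 71.0 ± 29.4 CPM (SD, n = 6) in C. The difference was 2.07-fold, a log2 fold change of 1.05 with an SE of 0.32 and a 95% confidence interval of 0.40 to 1.71 (edgeR adjusted p = 0.0265). The call depended on single animals. It was lost without C replicate 1 (edgeR adjusted p = 0.0523), C replicate 3 (0.0613), T+WSD replicate 8 (0.0559) or T+WSD replicate 9 (0.0734), although the log2 fold change stayed between 0.87 and 1.24 whichever animal was left out. Within the 16 libraries it was 0.92 (edgeR adjusted p = 0.247) and within the 8 it was 1.39 (edgeR adjusted p = 0.326), so the direction was the same in both and neither was called.

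The order of group means for IGF2 was T+WSD, T, WSD and C, and the 3 lower groups overlapped widely. T exceeded C by 0.27 on the log2 scale (edgeR adjusted p = 0.832) and WSD exceeded C by 0.17 (edgeR adjusted p = 0.818). With 1 animal left out at a time, the difference of WSD from C ran from -0.26 to 0.36, and its direction reversed in 1 case. T+WSD was 1.84-fold above WSD (edgeR adjusted p = 0.121) and 1.72-fold above T (edgeR adjusted p = 0.123), and neither was called. With only T+WSD and T in the fit, the difference from T was 0.80 on the log2 scale and was called (edgeR adjusted p = 0.0290). Without WSD replicate 21, the difference from WSD was 1.31 on the log2 scale and was called (edgeR adjusted p = 0.0123). The interaction compares the effect of testosterone on the Western-style diet with its effect on chow. It was 0.61 with a 95% confidence interval of -0.31 to 1.53 (edgeR adjusted p = 0.591). With 1 animal left out at a time it ran from 0.42 to 1.04 and was never called. An effect of the combination beyond the sum of the separate log2 fold changes was thus not resolved for IGF2.

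IGF1 (ENSMMUG00000002235), the ligand through which growth hormone acts on many tissues, ran at 91.1, 215 and 322 CPM in C and at 125, 169 and 289 CPM in T. It ran at 188, 243 and 408 CPM in WSD and at 227, 272 and 324 CPM in T+WSD. Both groups on the Western-style diet had higher means than both groups on chow, but all groups overlapped and no comparison was called. The T+WSD mean was 1.36-fold that of C (edgeR adjusted p = 0.255) and 1.48-fold that of T (edgeR adjusted p = 0.182), and only 1 T+WSD animal lay above every C animal.

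Among the receptors, IGF2R (ENSMMUG00000015658), also known as the cation-independent mannose 6-phosphate receptor, clears IGF2 and sorts newly made enzymes to lysosomes. It stood at 245, 353 and 450 CPM in C, at 351, 433 and 487 CPM in T, and at 401, 418 and 475 CPM in WSD. In T+WSD it stood at 503, 519 and 656 CPM. Every T+WSD animal lay above each of the 18 animals of the other groups, while C, T and WSD overlapped with one another. Groups did not overlap, with T+WSD higher, for 3.49% of all genes tested against C, 1.47% against WSD and 2.99% against T.

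Mean IGF2R was 553 ± 64.4 CPM (SD, n = 6) in T+WSD and 338 ± 81.5 CPM (SD, n = 6) in C. The difference was 1.63-fold, a log2 fold change of 0.71 with an SE of 0.13 and a 95% confidence interval of 0.44 to 0.98 (edgeR adjusted p = 0.00317). The call held whichever of the 24 animals was left out, with the log2 fold change between 0.63 and 0.81. Within the 16 libraries it was 0.57 (edgeR adjusted p = 0.0768) and within the 8 it was 1.04 (edgeR adjusted p = 0.330), again in the same direction and not called. With a term for the 8 libraries in the fit of all 24 animals, it was 0.71 (edgeR adjusted p = 0.00385) and was called.

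For IGF2R the single treatments lay between the extremes. T was 1.26-fold above C (edgeR adjusted p = 0.547) and WSD was 1.25-fold above C (edgeR adjusted p = 0.195). T+WSD was 1.30-fold above WSD (edgeR adjusted p = 0.105) and 1.29-fold above T (edgeR adjusted p = 0.0810), although no animals overlapped. These 4 differences were of similar size, 0.33 to 0.38 on the log2 scale, and none was called. At 1.25-fold to 1.30-fold they missed the fold threshold whatever their p. In DESeq2, T+WSD had an adjusted p of 0.0391 against T and of 0.0538 against WSD, also short of the fold threshold. The interaction was 0.04 with a 95% confidence interval of -0.34 to 0.42 (edgeR adjusted p = 0.964).

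IGF1R (ENSMMUG00000012305), the signalling receptor of both ligands, had from 118 to 1354 counts per library. Its group medians were 30.5 (C), 38.0 (T), 30.4 (WSD) and 32.5 CPM (T+WSD). The groups overlapped throughout and no comparison was called. T+WSD against C gave a log2 fold change of -0.12 with a 95% confidence interval of -0.48 to 0.24 (edgeR adjusted p = 0.697). That interval lies within a change of 1.5-fold in either direction.

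**Figure D2:**
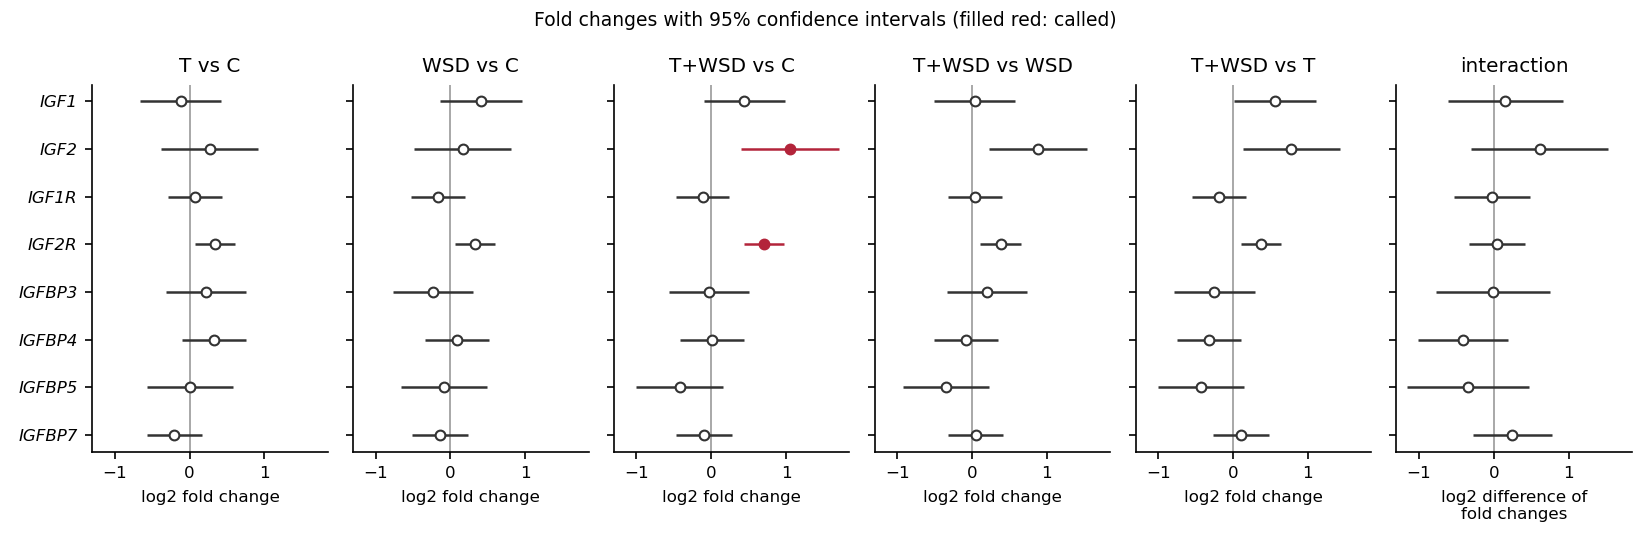
Log2 fold change (x axis) of the 8 IGF genes (y axis) in the 5 comparisons and the interaction, with 95% confidence intervals from edgeR. Filled red points mark calls, which are IGF2 at 1.05 and IGF2R at 0.71 in T+WSD against C.

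None of the 4 binding proteins measured was called in any comparison. IGFBP3 (ENSMMUG00000013764), the main carrier of IGF in blood, ran from 219 to 743 CPM over the 24 animals. Its group medians were 353 (C), 476 (T), 335 (WSD) and 297 CPM (T+WSD). The maximum was T+WSD replicate 8, and the next animal of that group stood at 393 CPM. The log2 fold change of T+WSD against C was -0.03 with a 95% confidence interval of -0.57 to 0.51 (edgeR adjusted p = 0.955).

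IGFBP4 (ENSMMUG00000009384), which restrains IGF until it is cleaved by PAPPA, ran from 74.3 to 218 CPM, with group medians of 108 (C), 134 (T), 116 (WSD) and 110 CPM (T+WSD). Its log2 fold change in T+WSD against C was 0.01 with a 95% confidence interval of -0.42 to 0.43 (edgeR adjusted p = 0.988). IGFBP4 was highest in T on average, 1.26-fold above C (edgeR adjusted p = 0.657). That difference was absent within the 16 libraries, where the log2 fold change was -0.01.

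IGFBP5 (ENSMMUG00000041480), a binding protein that also attaches to extracellular matrix, ran from 908 to 3154 CPM. Its group medians were 1820 (C), 1721 (T), 1635 (WSD) and 1380 CPM (T+WSD). The T+WSD mean was 0.745 of the C mean, a log2 fold change of -0.42 with an SE of 0.28 (edgeR adjusted p = 0.306). IGFBP7 (ENSMMUG00000014011), which binds IGF weakly and is abundant in vessel walls, ran from 139 to 334 CPM, with group medians of 248 (C), 216 (T), 205 (WSD) and 235 CPM (T+WSD). Its log2 fold change in T+WSD against C was -0.09 with a 95% confidence interval of -0.46 to 0.28 (edgeR adjusted p = 0.769).

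With all 24 animals in 1 fit of 4 groups, the other comparisons gave no call among the 8 genes in edgeR or DESeq2. In WSD against C, 0% of all genes were called in edgeR, and 1 of the 8 had an unadjusted p under 0.05, beside 18.5% of all genes. In T against C, 0% of all genes were called, and 1 of the 8 had an unadjusted p under 0.05, beside 8.63%. In both cases that gene was IGF2R. In T+WSD against WSD, 0.815% of all genes were called, and 2 of the 8 had an unadjusted p under 0.05, beside 20%. In T+WSD against T, 3.77% of all genes were called, and 3 of the 8 had an unadjusted p under 0.05, beside 25.9%. For the interaction, called at an adjusted p below 0.1, 0.809% of all genes were called, and 0 of the 8 had an unadjusted p under 0.05, beside 13.5%. The counts over all genes depended on the tool and on single animals. DESeq2 called 238 genes in WSD against C, 7 in T against C, 432 in T+WSD against WSD, 1088 in T+WSD against T and 481 for the interaction. In edgeR, leaving out 1 animal gave 9 (WSD replicate 24) to 448 (WSD replicate 21) in T+WSD against WSD, and 40 (T replicate 15) to 527 (WSD replicate 21) for the interaction. It gave up to 59 (WSD replicate 19) in WSD against C, and at least 238 (T+WSD replicate 10) in T+WSD against T. The comparisons share animals, so they are not independent of one another.

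IGF2 and IGF2R were read beside markers of the cell types that omental fat can hold. In whole tissue, fewer cells of a type and less RNA per cell cannot be told apart. Mesothelial cells cover the surface of the omentum, and 9 of 10 listed markers could be matched. Of these 9, 8 were called lower and 0 higher in T+WSD against C, at a median log2 fold change of -2.66. Over all genes, 5.29% were called lower and 4.72% higher. They were BNC1, ITLN1, KRT18, KRT19, KRT8, MSLN, UPK3B and WT1. The most abundant was ITLN1, the adipokine omentin, which fell by 3.28 on the log2 scale (edgeR adjusted p = 0.0109). The summed mesothelial level was 2722, 7579 and 38893 CPM in C and 235, 969 and 3070 CPM in T+WSD. In T it was 2784, 3955 and 17570 CPM, and in WSD 707, 4489 and 5977 CPM. None of the listed mesothelial genes found was at 0 in any library.

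Endothelial markers moved the other way. All 10 listed were matched, 6 were called higher in T+WSD and 0 lower, beside 4.72% and 5.29% of all genes, and the median log2 fold change was 0.67. The 6 were CDH5, CLDN5, ESAM, PECAM1, TIE1 and VWF, of which VWF was the most abundant and rose 1.96-fold (edgeR adjusted p = 0.00740). The summed endothelial level was 1060, 1501 and 1785 CPM in C and 2013, 2296 and 3106 CPM in T+WSD, with no overlap. In T it was 1324, 1795 and 2161 CPM, and in WSD 1573, 1851 and 2407 CPM. KRT8 and CLDN5 took their names from the study's own tables of selected genes, so their calls are not independent of that choice.

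Of the 6 markers of smooth muscle and pericytes, NOTCH3, RGS5 and TAGLN were called higher (3 of 6, beside 4.72% of all genes), and TAGLN was the most abundant. Summed, they stood at 581, 632 and 1220 CPM in C and at 1109, 1272 and 1634 CPM in T+WSD. Of the 7 adipocyte markers, LEP was called higher, 4.61-fold (edgeR adjusted p = 0.0442), beside 4.72% of all genes. All 7 had a positive log2 fold change, with a median of 0.74. Of the 7, 4 had an unadjusted p under 0.05, beside 32.1% of all genes. The adipocyte sum was 1997, 11510 and 14806 CPM in C and 14574, 21424 and 22839 CPM in T+WSD. Of 10 fibroblast and progenitor markers, DPT was called higher, beside 4.72% of all genes, and COL3A1 was the most abundant. That sum was 8755, 16360 and 28625 CPM in C and 9392, 15470 and 19144 CPM in T+WSD.

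Of 8 matched macrophage markers, ITGAX was called higher in edgeR, beside 4.72% of all genes, DESeq2 called 2 of the 8, beside 1898 of all genes, and CSF1R was the most abundant. The macrophage sum was 204, 565 and 1049 CPM in C and 543, 821 and 1003 CPM in T+WSD. None of 5 markers of T, NK and B cells was called in edgeR or DESeq2. Of the 5, 0 had an unadjusted p under 0.05, beside 32.1% of all genes. Their sum, led by NKG7, was at most 8.86 CPM in any animal. Of the hepatocyte markers, 3 of 7 passed the filter. Of these 3, ALB was called higher, again beside 4.72% of all genes, with 798 counts in T+WSD replicate 11 and at most 43 in any other library, and SERPINA1 was the most abundant. No pancreas marker passed the filter, PRSS1 was at 0 in every library, and CPA1, the most abundant, averaged 0.221 CPM.

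**Figure D3:**
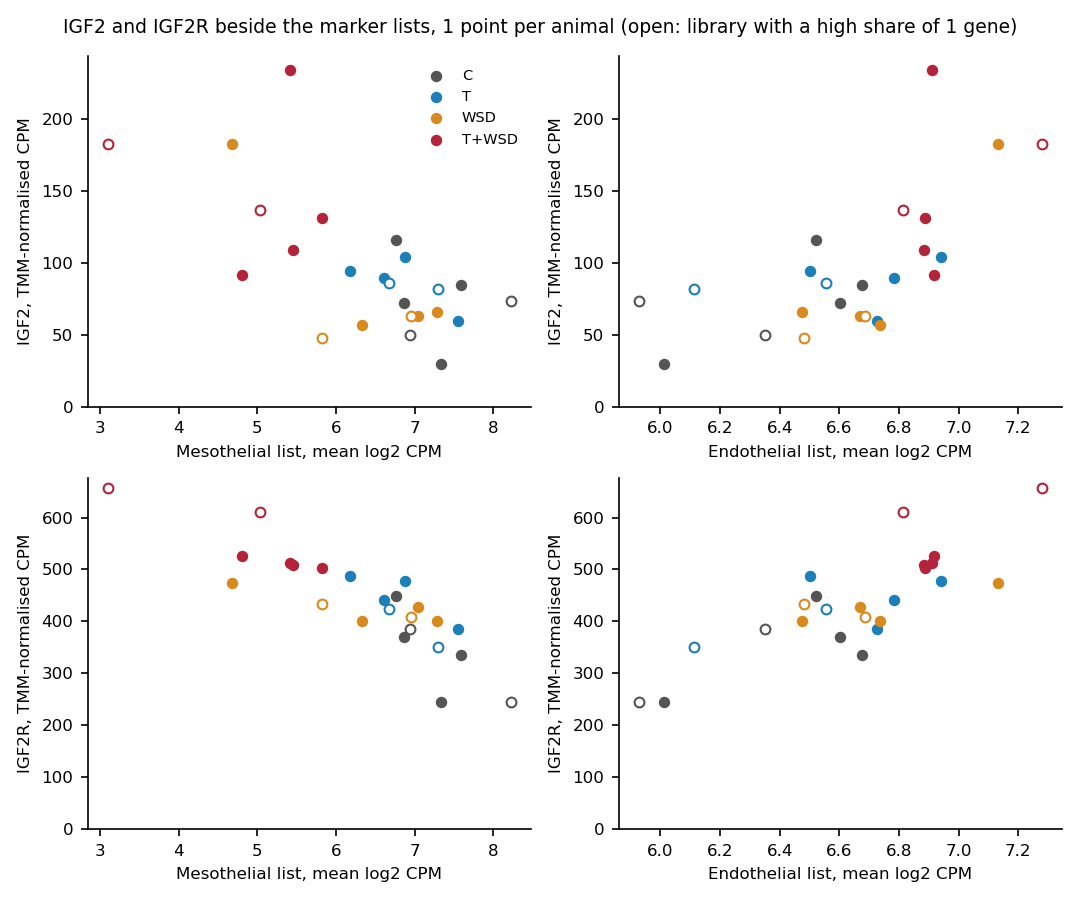
TMM-normalised CPM of IGF2 (top) and IGF2R (bottom) against the mean log2 CPM of the mesothelial list (left) and the endothelial list (right). Each point is 1 of 24 animals, coloured by group, and open points are the 8 libraries in which a single gene took 9.92% to 54.7% of counts. T+WSD animals sit at low mesothelial and high endothelial values, and WSD replicate 21, with IGF2 at 182 CPM, lies among them.

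The 3 animals with the highest IGF2 were T+WSD replicate 9 (234 CPM), T+WSD replicate 8 (183 CPM) and WSD replicate 21 (182 CPM). They also had the 3 highest endothelial sums, 2635, 3106 and 2407 CPM. Their endothelial means, the measure used in the fits, were 6.91, 7.28 and 7.13 log2 CPM. These were not the 3 highest means, since T+WSD replicate 9 lay below T replicate 17 (6.94). The mesothelial means of the 3 animals were 5.42, 3.10 and 4.68 log2 CPM. T+WSD replicate 12 had the lowest IGF2 of its group, 91.5 CPM, with an endothelial sum of 2106 CPM and a mesothelial mean of 4.81. Its endothelial mean was 6.92, above that of T+WSD replicate 9. T+WSD replicate 8 also had the highest IGF2R of all 24 animals, the lowest total count, 6899185, and the highest share of ENSMMUG00000038258, 54.7%. The animals named here were picked out after their values were seen. With the mesothelial mean added to the fit, the T+WSD against C log2 fold change of IGF2 was 0.31 and that of IGF2R was 0.29. With the endothelial mean added they were 0.39 and 0.37. Neither gene was called in either fit, and 0 of the 15207 genes were called in T+WSD against C in either of them. The mesothelial mean ran from 6.76 to 8.22 log2 CPM in C and from 3.10 to 5.82 in T+WSD. The endothelial mean ran from 5.93 to 6.68 in C and from 6.81 to 7.28 in T+WSD. With no overlap in either mean, these fits cannot separate group from marker mean, and no conclusion is drawn from them. The part of cell composition in the IGF2 and IGF2R results was not tested.

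Other genes of the pathway were taken from lists of 33 genes, of which 29 could be matched and 28 passed the filter. In T+WSD against C, 2 were called higher and 4 lower, beside 4.72% and 5.29% of all genes, and the median log2 fold change of the 28 was 0.18. In T+WSD against T, 3 were called higher and 3 lower, where 2.34% of all genes were called higher and 1.43% lower. Markers differed here too, with 6 of 9 mesothelial markers called lower (median log2 fold change -2.21). Of smooth muscle and pericyte markers, 2 of 6 were called higher, as were 2 of 8 of macrophages. No endothelial marker was called in edgeR or DESeq2, and 4 of 10 had an unadjusted p under 0.05, beside 25.9% of all genes. The part of cell composition in these calls was not tested. No pathway gene was called in T against C, WSD against C or T+WSD against WSD, where 7, 9 and 7 of the 28 had an unadjusted p under 0.05, beside 8.63%, 18.5% and 20% of all genes. DESeq2 also called 0 of the 28 in each of these 3 comparisons, beside 7, 238 and 432 of all genes. The 6 calls in T+WSD against C depended on single animals. Their number was 2 without C replicate 3, T+WSD replicate 7 or T+WSD replicate 11, and 3 without C replicate 5 or T+WSD replicate 8, 9 or 10. It was 3 with no low-count filter and 0 with the mesothelial or endothelial mean in the fit. It was 0 within the 16 libraries, where edgeR called 78 of all genes, and 0 within the 8, where it called 0 of all genes. The pathway calls of the other comparisons were not tested in this way.

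Binding protein partners and proteases gave 1 higher and 2 lower of 7 tested in T+WSD against C, beside 4.72% and 5.29% of all genes. STC2, a secreted inhibitor of the protease PAPPA, averaged 17.4 ± 4.12 CPM (SD, n = 6) in T+WSD and 10.2 ± 1.88 CPM (SD, n = 6) in C, 1.71-fold higher (edgeR adjusted p = 0.0316). Its relative STC1 averaged 4.60 ± 1.09 CPM in T+WSD and 10.4 ± 5.16 CPM in C, a log2 fold change of -1.18 (edgeR adjusted p = 0.0457). These inhibitors of the same protease thus differed from C in opposite directions in T+WSD. Their patterns over the single treatments were unlike. Mean STC1 was 5.37 CPM in T and 8.32 CPM in WSD, and mean STC2 was 9.11 and 13.9 CPM, none called against C. STC1 in T+WSD differed from T by -0.22 on the log2 scale (edgeR adjusted p = 0.777). In T+WSD against C, PAPPA itself was not called, at -0.59 (edgeR adjusted p = 0.395).

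IGFALS encodes the acid-labile subunit that forms the circulating complex of IGF with IGFBP3. It had at most 9 counts in any T+WSD library and 3 to 50 in C, and its log2 fold change of -2.72 (edgeR adjusted p = 0.0123) rests on these low counts. It was also called lower against T (edgeR adjusted p = 0.0471). HTRA1, a secreted protease that can cleave binding proteins, was called in T+WSD against T, 1.92-fold higher (edgeR adjusted p = 0.0261), with all 6 T+WSD animals above every T animal, as for 2.99% of all genes. Against C it was 1.52-fold higher and was called in DESeq2 (adjusted p = 0.0492) but not in edgeR (adjusted p = 0.0787). Its name came from the study's own tables of selected genes. STC2 was 1.92-fold higher in T+WSD than in T (edgeR adjusted p = 0.0270).

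Of the IGF2 mRNA binding proteins, 2 of 3 passed the filter, and IGF2BP2 was called lower. IGF2BP2 binds IGF2 messenger RNA and promotes its translation. It stood at 7.97, 10.1 and 20.9 CPM in C and at 2.83, 4.83 and 6.45 CPM in T+WSD. All 6 T+WSD animals lay below every C animal, a pattern shown by 4.12% of all genes tested. The log2 fold change was -1.42 with an SE of 0.31 (edgeR adjusted p = 0.00616), so IGF2BP2 RNA was lower in the group in which IGF2 RNA was higher. Against T it was -1.05 (edgeR adjusted p = 0.0463).

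Insulin and IGF receptor signalling gave 1 higher and 1 lower of 11 genes in T+WSD against C, beside 4.72% and 5.29% of all genes. PIK3R1, the regulatory subunit of PI3 kinase, rose 1.57-fold (edgeR adjusted p = 0.0317). GRB10, an adaptor that dampens signalling by IGF1R and the insulin receptor, had a log2 fold change of -0.59 (edgeR adjusted p = 0.0499), close to both thresholds. In DESeq2 it was -0.57 (adjusted p = 0.0414), short of the fold threshold, and GRB10 was not called. Against T it was called in DESeq2 (log2 fold change -0.63, adjusted p = 0.0362) but not in edgeR (-0.65, adjusted p = 0.0566). Against T, PIK3R1 was 1.88-fold higher (edgeR adjusted p = 0.0159) with no overlap, as for 2.99% of all genes.

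Of the 28 pathway genes, 1 had a called interaction, beside 0.809% of all genes. An unadjusted p under 0.05 was found for 6 of the 28, beside 13.5%. The called gene was IRS1, the docking protein that couples IGF1R and the insulin receptor to PI3 kinase. It stood at 58.0, 89.1 and 121 CPM in C and at 120, 142 and 244 CPM in T. In WSD it stood at 91.1, 108 and 169 CPM, and in T+WSD at 69.2, 84.9 and 109 CPM. Testosterone went with higher IRS1 on chow, by 0.76 on the log2 scale (edgeR adjusted p = 0.512), and with lower IRS1 on the Western-style diet, by -0.47 (edgeR adjusted p = 0.179). Neither difference was called, but the interaction was -1.24 with an SE of 0.28 (edgeR adjusted p = 0.0564), under the threshold of 0.1. T+WSD lay below T by -0.86 (edgeR adjusted p = 0.0178), with all 6 animals below every T animal, as for 3.1% of all genes.

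None of the 4 genes of the growth hormone axis that were tested (GHR, JAK2, STAT5A and STAT5B) was called in any comparison by edgeR or DESeq2. Of the 4, 3 had an unadjusted p under 0.05 in T against C, beside 8.63% of all genes, 3 in WSD against C, beside 18.5%, and 3 in the interaction, beside 13.5%. The smallest p was that of STAT5B in T against C, with a log2 fold change of 0.48 (edgeR adjusted p = 0.512). In T+WSD against C their median log2 fold change was 0.24, and 1 of the 4, STAT5A, had an unadjusted p under 0.05, beside 32.1% of all genes. STAT5A had an adjusted p of 0.0412 there in edgeR, but at 1.35-fold it missed the fold threshold. Nor was any of the 4 genes of mannose 6-phosphate sorting called, the pathway in which IGF2R works beside M6PR. Here the median in T+WSD against C was 0.19, 1 had an unadjusted p under 0.05, beside 32.1% of all genes, and M6PR itself was at -0.16 (edgeR adjusted p = 0.358).

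**Figure D4:**
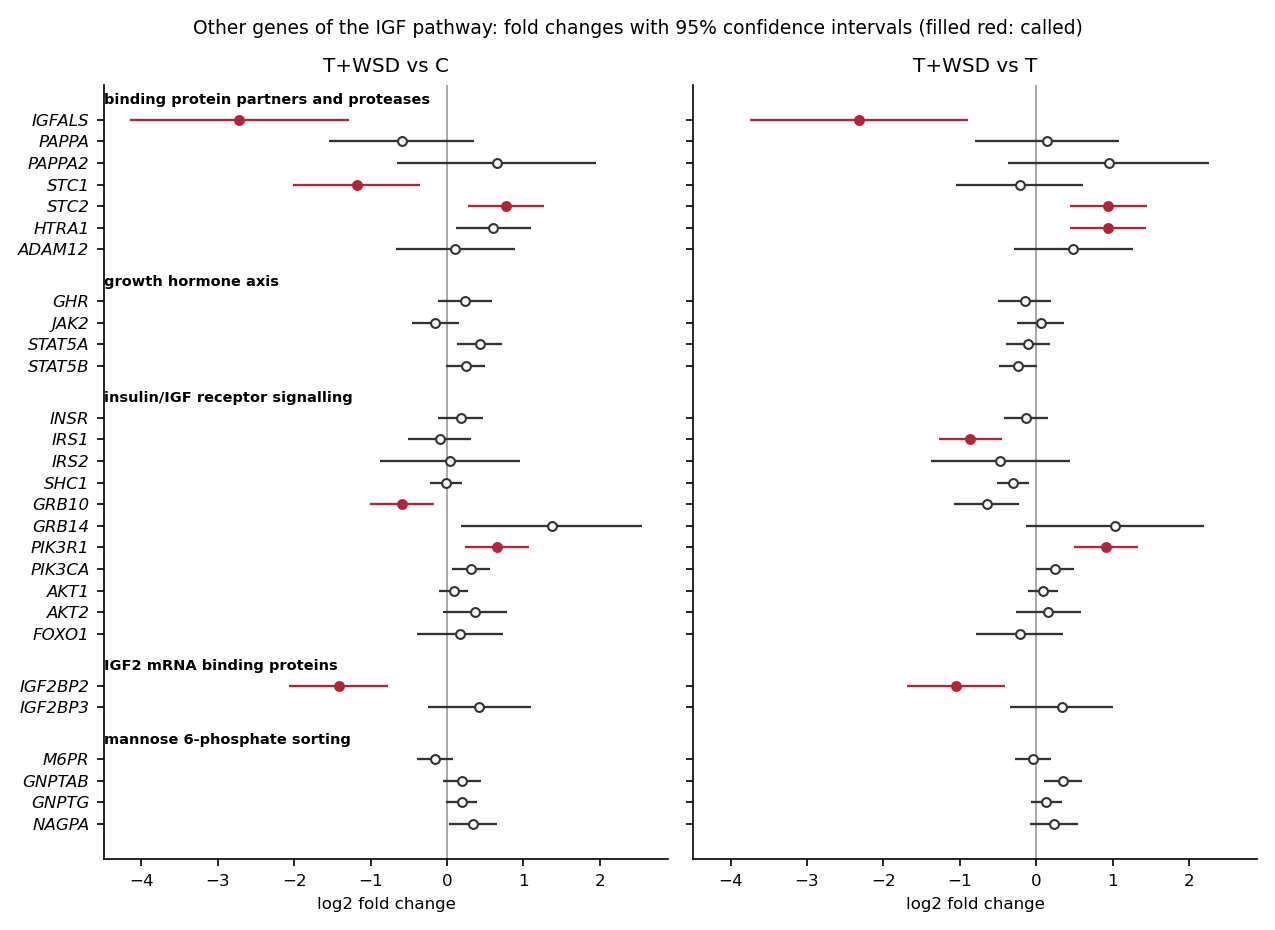
Log2 fold change (x axis) with 95% confidence intervals of the 28 tested pathway genes (y axis), grouped by list, in T+WSD against C (left) and T+WSD against T (right). Filled red points mark the 6 calls in each comparison, with IGFALS at -2.72 and IGF2BP2 at -1.42 the lowest in T+WSD against C.

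Within groups, correlations among the 8 genes were mostly not resolved with 24 animals. Over 28 pairs, with group means subtracted from log2 CPM, Pearson's r ran from -0.38 to 0.60 with a median of 0.07 (24 animals). No pair passed an adjusted permutation p of 0.05 by r, and 3 pairs had an unadjusted permutation p under 0.05. The strongest was IGF1R with IGFBP3, with r = 0.60 (permutation p = 0.00235, adjusted 0.0658) and Spearman's rho = 0.70 (permutation p = 0.000520, adjusted 0.0146). Without the 2 animals farthest from the median of IGF1R, r was 0.60, and with centring within group and library set it was 0.49 (adjusted permutation p = 0.308). Within the 16 libraries r was 0.70, and within the 8 it was 0.29.

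IGFBP4 with IGFBP5 gave r = 0.55 (permutation p = 0.0165, adjusted 0.202) and rho = 0.49 (permutation p = 0.0314, adjusted 0.372), with r at 0.36 without the 2 farthest animals. It was 0.71 within the 16 libraries and 0.23 within the 8. IGF2 with its clearance receptor IGF2R gave r = 0.50 (permutation p = 0.0217, adjusted 0.202) and rho = 0.46 (permutation p = 0.0402, adjusted 0.372), and r was 0.35 without the 2 farthest animals. It was 0.76 within the 16 libraries and -0.58 within the 8. With centring within group and library set it was 0.52 (adjusted permutation p = 0.325). The 8 hold 2 animals of each group, too few to show whether the relation held there.

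**Figure D5:**
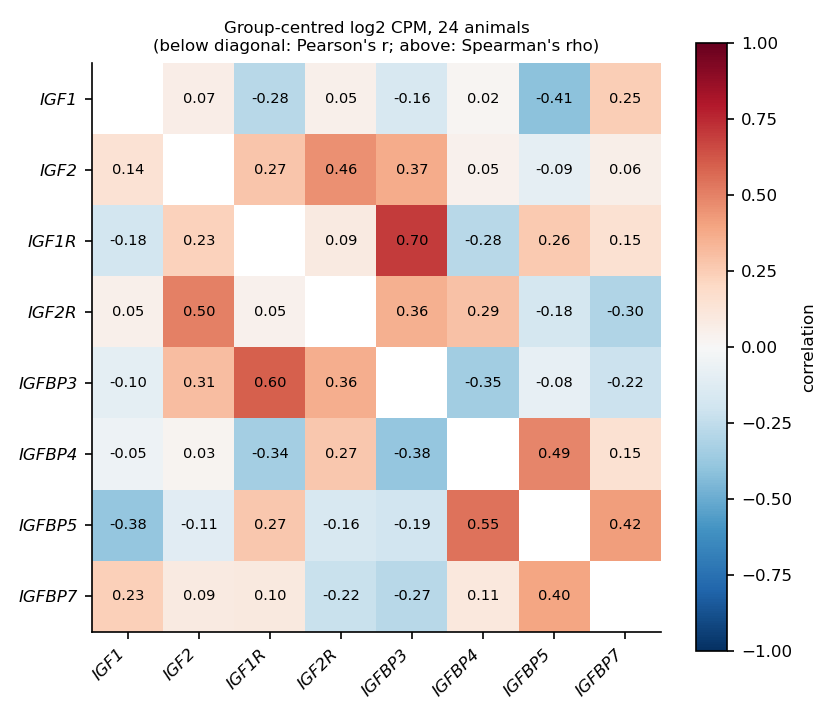
Correlations of group-centred log2 CPM among the 8 IGF genes over 24 animals, with Pearson's r below the diagonal and Spearman's rho above it. Colour runs from -1 (blue) to 1 (red), and the largest value of either kind is that of IGF1R with IGFBP3, r = 0.60 and rho = 0.70.

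The tested genes with a symbol whose group-centred levels followed each IGF gene most closely over the 24 animals are given as a description, by Spearman's rho. IGF1 was nearest to EMB (0.85), CHEK2 (0.71) and CFAP54 (0.70), and IGF2 to AGRN (0.77), TNS2 (0.76) and TFE3 (0.72). IGF1R was nearest to MAML1 (0.84), KMT2A (0.83) and AMOTL2 (0.83), and IGF2R to ECE1 (0.85), RGS7BP (0.82) and TBKBP1 (0.81). Among the binding proteins, IGFBP3 was nearest to DHRS12 (0.78), ZFC3H1 (0.77) and SWT1 (0.76), and IGFBP4 to AP1B1 (0.87), PREX1 (0.86) and TMEM104 (0.85). IGFBP5 was nearest to PTK7 (0.90), CACNB3 (0.89) and PRKCA (0.88), and IGFBP7 to DPYSL3 (0.88), CLTC (0.85) and MAGED1 (0.82). No IGF gene was among the nearest 3 of another.

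In the RefSeq annotation of assembly T2T-MMU8v2.0, the protein-coding gene beside IGF2 on one side is INS, that beside IGFBP5 is IGFBP2 and that beside IGFBP3 is IGFBP1. Whether the counting used strand is not given in the sources used here, so reads from a gene and from an antisense or overlapping transcript could not be told apart.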

How the data were processed

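Omental fat of 24 animals, 6 in each group, was measured, with no pooling. The authors trimmed reads with Trimmomatic 0.36, checked them with FastQC 0.11.5, aligned them to rheMac8 with STAR 2.5.2b and deposited raw counts per Ensembl gene. Their processing notes name DESeq2 1.18.1 for the later tests. The counting tool and its strand setting are not given in the sources used here. All 24 columns were used, and of 60 pairs of libraries within groups 0 were identical.

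Here, counts were tested in R 4.3.3 with edgeR 4.0.16, by quasi-likelihood F-tests in 1 fit of 4 group means, after TMM scaling and filterByExpr (minimum count 10, minimum total 15). Adjustment was by Benjamini-Hochberg over all 15207 genes tested. Calls needed an adjusted p below 0.05 and a fold change over 1.5, or for the interaction an adjusted p below 0.1. The fit was tested on simulated data. Correlations used log2 CPM (prior count 2), group means subtracted and 100000 permutations within groups, in Python 3.11.15 with NumPy 2.4.6. Alternatives were DESeq2 1.42.0, RLE size factors, no low-count filter, only the groups compared, a term for the 8 libraries, the 16 or the 8 libraries alone, a mesothelial or endothelial mean as covariate, no fold threshold, and each animal left out. For correlations they were a prior count of 0.5 and centring within group and library set.

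Genes named are the 10 IGF genes, pathway genes called in any comparison, the 3 genes most alike to each IGF gene, and from each marker list the most abundant gene and those called in T+WSD against C. PAPPA, M6PR and the growth hormone axis genes were named in addition, after their values were seen. Also named are PRSS1, a marker at 0 in every library, INS and IGFBP1 as neighbouring genes, and ENSMMUG00000038258. Pathway lists were written from general knowledge of the IGF system and marker lists from that of the cell types. The genes and lists were chosen with earlier results of these data known.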

Additional observations from a re-analysis of the deposited data

Results flagged for a closer look

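In groups of 6 animals, a value was picked out when its gap to the nearest other animal, divided by the range of the group, was above the critical value of Dixon's test at 95%. Chance picks out about 1 in 20 groups, and 9 of 100 groups tested were picked out, so some of these are expected by chance. In WSD, replicate 21 lay far above the others for IGF2, at 182.046 CPM, and replicate 20 for STC2, at 25.8834 CPM. In T+WSD, replicate 8 lay far above the others for IGFBP3, at 743.155 CPM, and replicate 12 far below the others for HTRA1, at 387.138 CPM. In T, replicate 16 lay far above the others for IRS1, at 244.397 CPM. Among sums of markers, the highest animal lay apart for the mesothelial list in C (38892.9 CPM, replicate 1) and in T (17570.1 CPM, replicate 18). The same held for the smooth muscle and pericyte list in C (1220.09 CPM, replicate 5) and for the hepatocyte list in T+WSD (85.7635 CPM, replicate 11). Apart from single animals, the effect of testosterone on IRS1 differed between the diets, with an interaction of -1.23643 on the log2 scale (edgeR adjusted p = 0.0564). The causes of these values were not tested.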

How the results depend on the processing

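The direction of both calls in T+WSD against C, IGF2 and IGF2R, was the same under every alternative fit, and both were called with DESeq2 (adjusted p = 0.00886 and 1.18e-05). Both stayed called with a term for library set, at log2 fold changes of 1.06 and 0.71 (edgeR adjusted p = 0.0273 and 0.00385). Neither was called within the 16 libraries, within the 8, or with a marker mean in the fit. The marker means did not overlap between C and T+WSD, so the fits with them cannot separate group from marker mean. The fit on the 8 libraries alone was chosen after seeing the data, and the fit of only 2 groups could not be applied to the interaction. Of 424 log2 fold changes of IGF genes under other settings, 370 kept their direction and side of the threshold. Counts of calls that moved by more than 1.5 times were as follows. With DESeq2, all genes called numbered 238 (WSD against C), 7 (T against C), 432 (T+WSD against WSD), 1088 (T+WSD against T), 481 (interaction). With no low-count filter, pathway genes called numbered 3 (T+WSD against C) and all genes called numbered 68 (T+WSD against WSD), 38 (interaction). With only the 2 groups compared, all genes called numbered 1 (WSD against C), 46 (T+WSD against WSD), 1059 (T+WSD against T) and IGF genes called numbered 1 (T+WSD against T). With a term for library set, all genes called numbered 1 (WSD against C). With only the 16 libraries, IGF genes called numbered 0 (T+WSD against C) and all genes called numbered 78 (T+WSD against C), 0 (T+WSD against WSD), 308 (T+WSD against T), 2 (interaction) and pathway genes called numbered 0 (T+WSD against C). With only the 8 libraries, IGF genes called numbered 0 (T+WSD against C) and all genes called numbered 0 (T+WSD against C), 0 (T+WSD against WSD), 0 (T+WSD against T), 0 (interaction) and pathway genes called numbered 0 (T+WSD against C). With the mesothelial mean as a covariate, IGF genes called numbered 0 (T+WSD against C) and all genes called numbered 0 (T+WSD against C), 1 (T+WSD against WSD), 0 (T+WSD against T), 71 (interaction) and pathway genes called numbered 0 (T+WSD against C). With the endothelial mean as a covariate, IGF genes called numbered 0 (T+WSD against C) and all genes called numbered 0 (T+WSD against C), 8 (T+WSD against WSD), 30 (T+WSD against T) and pathway genes called numbered 0 (T+WSD against C). With no fold threshold (interaction: adjusted p under 0.05), all genes called numbered 2603 (T+WSD against C), 254 (T+WSD against WSD), 988 (T+WSD against T), 44 (interaction). With only 2 groups, IGF2 in T+WSD against T was called (log2 fold change 0.80, edgeR adjusted p = 0.0290). None of the log2 fold changes that reversed was called. With DESeq2: IGFBP3 interaction 0.0110. With RLE size factors: IGFBP3 interaction 0.0124. With no low-count filter: IGFBP4 T+WSD against C -0.0101, IGF2R interaction -0.000480. With a term for library set: IGFBP4 T+WSD against C -0.00334, IGFBP5 T against C -0.00437. With only the 16 libraries: IGFBP4 T+WSD against C -0.11, IGFBP7 T+WSD against C 0.0209, IGFBP4 WSD against C -0.19, IGFBP4 T against C -0.00754, IGFBP5 T against C -0.19, IGFBP3 T+WSD against WSD -0.0414, IGFBP4 T+WSD against WSD 0.0787, IGF2R interaction -0.0836, IGFBP4 interaction 0.0862, IGFBP5 interaction 0.0410. With only the 8 libraries: IGFBP3 T+WSD against C 0.50, IGF2 WSD against C -0.17, IGFBP5 WSD against C 0.0268, IGF1R T against C -0.56, IGFBP3 T against C -0.39, IGF1R T+WSD against T 0.33, IGFBP3 T+WSD against T 0.89, IGF1R interaction 0.61, IGFBP3 interaction 0.96. With the mesothelial mean as a covariate: IGF1R T+WSD against C 0.0851, IGFBP5 T+WSD against C 0.33, IGFBP7 T+WSD against C 0.42, IGF2 WSD against C -0.22, IGFBP5 WSD against C 0.14, IGFBP7 WSD against C 0.0551, IGF1 T+WSD against WSD -0.0249, IGFBP3 T+WSD against WSD -0.20, IGFBP5 T+WSD against WSD 0.19, IGFBP5 T+WSD against T 0.20, IGF1R interaction 0.0506, IGF2R interaction -0.15, IGFBP5 interaction 0.0604. With the endothelial mean as a covariate: IGFBP5 T+WSD against C 0.0779, IGF2 WSD against C -0.30, IGFBP5 WSD against C 0.19, IGFBP3 T against C -0.000308, IGF1 T+WSD against WSD -0.0753, IGFBP3 T+WSD against WSD -0.00750, IGFBP4 T+WSD against WSD 0.0159. With centring within group and library set: Pearson r of IGF1R and IGF2R -0.0953, Pearson r of IGFBP3 and IGFBP5 0.00629. With 1 animal left out at a time, the results that changed a call, a count or a direction ranged as follows: IGF genes called T+WSD against C 1 to 2, all genes called T+WSD against C 900 to 1790, pathway genes called T+WSD against C 2 to 6, IGF2 T+WSD against C 0.87 to 1.24, IGF1R T+WSD against C -0.18 to 0.0524, IGFBP3 T+WSD against C -0.33 to 0.13, IGFBP4 T+WSD against C -0.0630 to 0.10, IGFBP7 T+WSD against C -0.16 to 0.00417, all genes called WSD against C 0 to 59, IGF2 WSD against C -0.26 to 0.36, IGFBP4 WSD against C -0.0105 to 0.18, IGFBP5 WSD against C -0.24 to 0.0462, all genes called T against C 0 to 1, IGF1 T against C -0.29 to 0.0696, IGF1R T against C -0.0210 to 0.22, IGFBP5 T against C -0.21 to 0.12, IGF genes called T+WSD against WSD 0 to 1, all genes called T+WSD against WSD 9 to 448, IGF1 T+WSD against WSD -0.0486 to 0.20, IGF2 T+WSD against WSD 0.70 to 1.31, IGF1R T+WSD against WSD -0.0258 to 0.15, IGFBP3 T+WSD against WSD -0.11 to 0.29, IGFBP4 T+WSD against WSD -0.16 to 0.0158, IGFBP7 T+WSD against WSD -0.0310 to 0.20, all genes called T+WSD against T 238 to 828, all genes called interaction 40 to 527, IGF1 interaction -0.0361 to 0.32, IGF1R interaction -0.16 to 0.0794, IGF2R interaction -0.0576 to 0.13, IGFBP3 interaction -0.33 to 0.0996. Fewer animals were fitted within the 16 and the 8 libraries. For the other changes the cause was not tested.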
